A study of Mus musculus with 9 samples.

Results

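The genes described are the microRNA (miRNA) gene loci on a mouse gene-level array. They were taken as the probe sets whose single annotated gene symbol begins with Mir and a digit or with Mirlet7, and a gene with several was read by the probe set with the highest mean over the 9 arrays. This gave 300 of 19938 genes tested. Among them 4 are long host transcripts that carry miRNAs (Mir17hg, Mir100hg, Mir99ahg and Mir670hg), and 39 lie on the X chromosome. No filter on low values was used, so all 300 entered every comparison. A probe set of such a gene reads the locus or its precursor transcript and cannot tell which mature arm is made.

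The cells were CD4-enriched T cells from the spleen of C57BL/6J mice. All 9 cultures were stimulated for 72 h on beads coated with antibodies to CD3 and CD28, the signalling part of the T cell receptor and its costimulatory partner. The 3 groups of 3 arrays were untreated wild-type, untreated CD69-/-, and wild-type cells that were also given anti-CD69 antibody from 24 h and, from 48 h, a second antibody to cross-link the first, each diluted 1 in 200 (called CD69-activated). CD69 is a lectin-like membrane protein of newly activated lymphocytes. The study compared the groups for genes that respond to loss or ligation of CD69. No isotype control culture is described, so antibody addition and CD69 ligation cannot be told apart. They call the samples biological replicates without naming their source mice, and p-values therefore measure only the spread between these samples, which may be technical. The sources used here do not give the age of the mice or the extent of the Cd69 deletion.

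A miRNA gene is transcribed as a primary transcript with a hairpin, which the nuclear enzyme Drosha and its partner Dgcr8 cut out as a precursor. Exportin-5 carries the precursor to the cytoplasm, Dicer1 cuts it to a short duplex, and an Argonaute protein keeps a strand of it and uses it to repress messenger RNAs. The seed, a short stretch near the 5′ end of the mature miRNA, chooses the targets, so miRNAs with the same seed can act on the same messages. Many miRNA genes lie in introns of other genes and others lie in clusters that share a primary transcript. In T cells miR-155 is known for effector functions, miR-181 for tuning of receptor signalling, miR-15/16 for restraint of the cell cycle and the miR-17 cluster for clonal growth.

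The mature sequences of the loci with the largest differences are shown by family, 5′ to 3′, with the seed (bases 2 to 8) in capitals. They come from the RefSeq miRNA table of build GRCm38.p6, which held a mature sequence for 270 of the 300 genes. The miR-15/16 family is shown because 5 of its 6 loci were called higher in CD69-activated cells.
miR-15a-5p: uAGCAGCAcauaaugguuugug
miR-15b-5p: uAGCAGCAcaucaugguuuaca
miR-16-5p: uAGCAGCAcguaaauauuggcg
miR-195a-5p: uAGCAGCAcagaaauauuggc
The families of miR-103 with miR-107 and of miR-28a with miR-708 are shown because Mir107 and Mir708 were called in both comparisons with wild type.
miR-103-3p: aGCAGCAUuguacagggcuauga
miR-107-3p: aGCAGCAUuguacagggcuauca
miR-28a-5p: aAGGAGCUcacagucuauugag
miR-708-5p: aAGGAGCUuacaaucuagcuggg
The next 6 come from the loci Mir505 (both arms), Mir687, Mir128-1, Mir342 and Mir181b-1, which rose most beside these families.
miR-505-5p: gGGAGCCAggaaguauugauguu
miR-505-3p: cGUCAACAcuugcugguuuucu
miR-687: cUAUCCUGgaaugcagcaauga
miR-128-3p: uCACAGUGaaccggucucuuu
miR-342-3p: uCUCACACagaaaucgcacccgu
miR-181b-5p: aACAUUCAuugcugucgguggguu
The last 3 belong to the T cell miRNAs miR-155 and miR-142 and to miR-27a, the locus called higher in CD69-/- cells.
miR-155-5p: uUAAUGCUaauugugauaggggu
miR-142a-3p: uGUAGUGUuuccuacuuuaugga
miR-27a-3p: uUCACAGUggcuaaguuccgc
In that table the sequence of miR-15a-5p lies at chr14:61632075-61632096 on the minus strand inside the long noncoding gene Dleu2, and miR-342-3p at chr12:108658680-108658702 on the plus strand inside Evl, an actin regulator. MiR-155-5p lies at chr16:84714143-84714165 on the plus strand inside its noncoding host Mir155hg. The tables used here do not say whether these positions are exonic or intronic, and the build of the array's own annotation is not named.

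Values are log2 RMA values, a method that ordinarily corrects background and brings arrays to a common scale. The mean values of the 300 miRNA genes ran from 3.62 to 11.93 with a median of 5.90, and the median over all 19938 genes was 7.70. The 25th percentile of the miRNA genes was 4.64. For scale, Eif2s3y, Uty and Kdm5d, which lie on the Y chromosome, had means of 4.33, 5.06 and 5.16 in wild-type arrays that show a female pattern. The median of the miRNA genes was 5.81, 5.81 and 5.86 on the wild-type arrays, 5.81, 5.78 and 5.82 on the CD69-/- arrays and 6.11, 6.11 and 6.00 on the CD69-activated arrays. It was thus higher in every CD69-activated array than in the other 6. The median of all genes was 7.70 to 7.73 on the wild-type arrays, 7.67 to 7.69 on the CD69-/- arrays and 7.70 to 7.72 on the CD69-activated arrays. The all-gene median was therefore also lower, by little, on each CD69-/- array than on any CD69-activated array. Probe sets differ in brightness for reasons other than RNA amount, so the level of a locus is compared only with itself in other groups.

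The arrays were checked by genes that mark their groups. Cd69 was lower in every CD69-/- array (difference -2.58), though its mean there was still 9.59. Limma also called Cd69 lower in CD69-activated than in wild-type arrays (-0.38). Xist and the Y-linked genes gave a male pattern in the 3 CD69-/- arrays and a female pattern in the other 6, so sex and genotype cannot be told apart in any comparison with CD69-/-. The labels call the cells enriched for CD4 T cells, and markers of CD4 T cells and of B cells were both bright, with means over the list of 11.82 to 11.90 and 11.96 to 12.01 per wild-type array against an all-gene median of 7.70. Levels of different probe sets give no share of cells. In bulk cultures fewer cells of a type and less RNA per cell cannot be told apart.

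The first comparison asks what loss of CD69 does to the miRNA loci. Few differed between CD69-/- and wild-type cells, and those that did were mostly lower without CD69. Limma called 15 of 300 lower and 1 higher at a Benjamini-Hochberg adjusted p under 0.05, 5% and 0.333%. Of all 19938 genes 6.78% were called lower and 8.36% higher, so the lower share is near the background and the higher share is below it. The groups did not overlap at any of the 16 called loci. A call with 3 arrays per group makes overlap unlikely, so this adds no separate support, and the share over all genes was not counted. The median difference over the 300 was -0.035, beside -0.009 over all genes. A difference above 0 was seen for 28.7% of the miRNA genes and 45.4% of all genes. Differences were small, with a median of -0.22 among those called lower, and 11 of those 15 were below 1.2-fold.

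Mir505 differed most. The wild-type arrays read 9.68, 9.63 and 10.00 and the CD69-/- arrays 9.17, 9.27 and 9.41 on the log2 scale. All 3 CD69-/- arrays lay under all 3 wild-type arrays, and the locus fell by 0.49 (SE 0.100, adjusted p = 0.00665). Mir15a, a brake on the cell cycle through its targets, stood at 8.48, 8.46 and 8.55 in wild-type and 8.04, 7.99 and 8.21 in CD69-/- arrays. The groups were apart and the locus fell by 0.41 (SE 0.061, adjusted p = 0.000734). Its cluster neighbour Mir16-1 stood at 6.30, 6.25 and 6.26 in wild-type and 6.33, 6.30 and 6.30 in CD69-/- arrays. The 2 neighbours thus gave different values although the RefSeq tables place both inside Dleu2 on the same strand. Dleu2 itself had a difference of -0.32 (SE 0.195) that was not called. Its probe set was dim, with a mean of 4.49, in the range of Y-linked genes in female-pattern arrays. It therefore says little about this host.

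Mir107, whose mature form differs from miR-103 near its 3′ end, lies in the pantothenate kinase gene Pank1. It stood at 7.05, 7.04 and 7.14 in wild-type and 6.79, 6.63 and 6.87 in CD69-/- arrays (difference -0.31, SE 0.077, adjusted p = 0.0183). Here the host moved with the locus, and Pank1 fell by 0.35. Mir681 fell by 0.31 (SE 0.053, adjusted p = 0.00213). It stood at 7.01, 6.93 and 7.14 in wild-type and 6.73, 6.65 and 6.77 in CD69-/- arrays, with no overlap.

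The other loci called lower were Mir383 (-0.26), Mir211 (-0.24), the neural Mir124a-2 (-0.23), Mir672 (-0.22), Mir346 (-0.21), Mir199a-1 (-0.19), Mir708 (-0.18), Mir326 (-0.18), Mir7-2 (-0.17), Mir185 (-0.16) and Mir670hg (-0.14). Mir326 is known in T cells for promoting Th17 differentiation, and its arrays read 8.28, 8.25 and 8.28 in wild-type and 8.12, 8.01 and 8.14 in CD69-/- cells. These are differences of little size at loci with tight replicates. For Mir326 the wild-type replicates 1 and 3 held the same value, 8.27576. Whether such ties understate the spread between samples was not tested. The call of 4 of the named loci (Mir107, Mir211, Mir326 and Mir383) was lost when certain arrays were left out.

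Mir27a was the locus called higher. It belongs to the miR-23a/27a/24-2 cluster, which acts on helper T cell cytokine programmes. Wild-type arrays read 7.95, 8.05 and 7.95, CD69-/- arrays 8.33, 8.17 and 8.26, and CD69-activated arrays 8.37, 8.19 and 8.27. It was therefore higher than wild type in all 6 other arrays, by 0.27 in CD69-/- cells (SE 0.057, adjusted p = 0.00748) and by 0.29 in CD69-activated cells (adjusted p = 0.00364). Its neighbours Mir23a and Mir24-2 had CD69-/- differences of -0.01 and 0.17 that were not called.

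Of the 44 T cell miRNAs 1 was called higher and 2 lower (Mir15a and Mir326), 2.27% and 4.55% beside 0.333% and 5% of the 300, with a median of -0.02. The lower count there was 4 with array weights, with an intensity trend or without the dimmest 25% of genes, and 1 without wild-type replicate 3 or CD69-/- replicate 2. Limma called 0 of 13 loci of the miR-17 cluster and its paralogues and 0 of 11 let-7 loci, with 0 and 1 at an unadjusted p under 0.05.

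Over all 300 genes the number of lower calls depended on single arrays. It was 7 without wild-type replicate 3 and also 7 without CD69-/- replicate 2, and 24 with array weights, and the number of higher calls was 2 without wild-type replicate 3. Markers of other cell types moved with genotype: all 7 CD4 T cell markers were higher (median 0.52) and all 7 B cell markers lower (median -0.45) in CD69-/- arrays, with summed log2 levels of 82.7 to 83.3 in wild type against 86.4 to 86.6 for the first and 83.7 to 84.1 against 80.1 to 80.6 for the second. Of the 7 myeloid markers 6 were lower, with sums of 58.1 to 58.3 in wild type and 53.0 to 53.8 in CD69-/- arrays. Of 5 erythroid markers 3 were lower, with sums of 38.4 to 38.5 against 33.9 to 34.8. No marker level was at 0 on this scale, and the part of these cells in the miRNA differences was not tested.

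**Figure D1:**
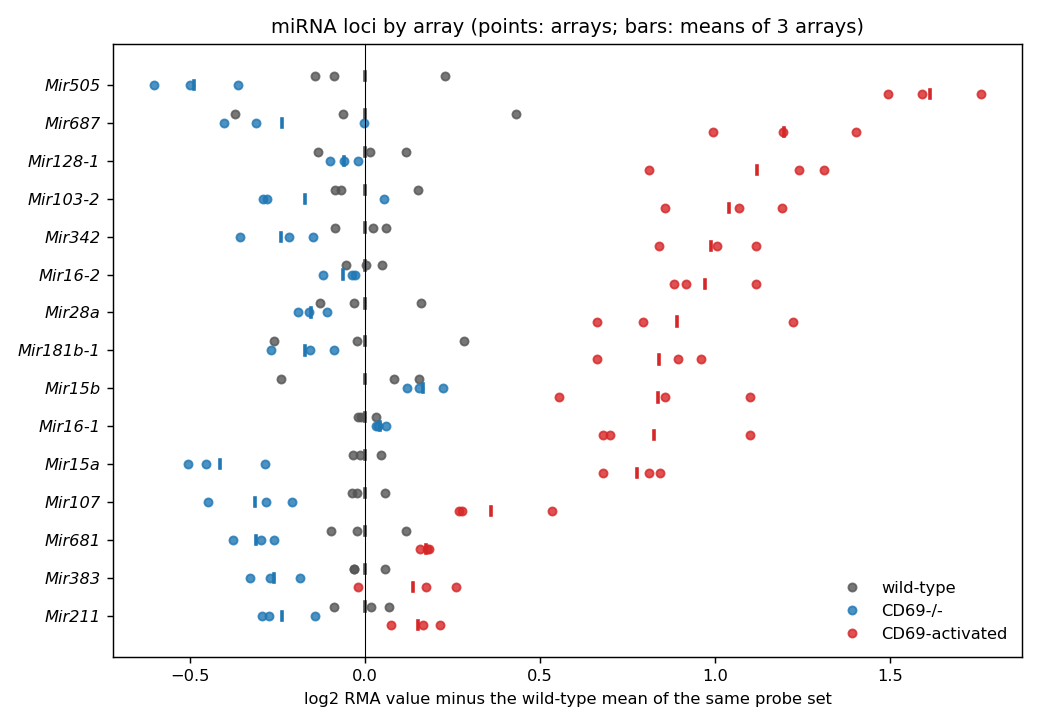
Log2 RMA value of 15 miRNA loci on each array, minus the wild-type mean of the same probe set, with points for arrays and bars for means of 3 arrays. The loci are the 10 with the largest CD69-activated minus wild-type difference and 5 more of the largest CD69-/- falls. For Mir505 the CD69-activated arrays lie to the right of wild type (mean difference 1.61) and the CD69-/- arrays to the left (-0.49).

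The second comparison asks what anti-CD69 treatment of wild-type cells does to the same loci. Here miRNA loci were higher in large number. Limma called 95 of 300 higher in CD69-activated than in wild-type cells, 31.7%, where 10.1% of all 19938 genes were called higher. No miRNA gene was called lower by limma, where 13.7% of all genes were. Of 139 miRNA genes at an unadjusted p under 0.05, 2 were lower. The median difference was 0.11 over the 300 loci and 0.02 over all genes. A difference above 0 was seen for 82.7% of the loci and 56.9% of all genes. At all 95 called loci the 3 CD69-activated arrays lay above the 3 wild-type arrays, which largely follows from the call. Some loci that were not called, such as Mir132 and Mir29a, were separated in the same way. The called differences ran from 0.13 to 1.61 with a median of 0.30, 4 of the 95 were at least 2-fold, and 40 were below 1.2-fold.

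Mir505 again led. It stood at 9.68, 9.63 and 10.00 in wild-type and 11.26, 11.53 and 11.36 in CD69-activated arrays. The groups were more than a log2 unit apart at their nearest arrays, and the locus rose 3.06-fold (1.61, SE 0.100, adjusted p = 1.51e-06). Mir687, which lies inside the retinoblastoma gene Rb1, stood at 6.07, 5.76 and 6.56 in wild-type and 7.12, 7.53 and 7.32 in CD69-activated arrays. It rose by 1.20 (SE 0.179, adjusted p = 0.000661), with the widest spread among the leading loci, and Rb1 itself rose by 0.21.

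Mir128-1 lies in R3hdm1, and its mature form is best known from neurons. It stood at 6.95, 7.10 and 7.20 in wild-type and 7.90, 8.40 and 8.33 in CD69-activated arrays. The groups were apart and it rose by 1.12 (SE 0.110, adjusted p = 4.39e-05). Its sister locus Mir128-2, in Arpp21, which gives the same mature miR-128-3p, read at most 7.06 in wild-type arrays and 7.27, 7.41 and 7.15 in CD69-activated arrays. This is a rise of 0.28 (adjusted p = 0.00752), smaller than that of the first locus. Neither host was called, with R3hdm1 at 0.02 and Arpp21 at 0.02.

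The family of miR-103 and miR-107, whose genes sit in pantothenate kinase genes, had all 3 loci called higher. Mir103-2 in Pank2 stood at 6.26, 6.24 and 6.48 in wild-type and 7.18, 7.52 and 7.39 in CD69-activated arrays and rose by 1.04 (SE 0.107, adjusted p = 5.87e-05). Mir107 rose by 0.36 and Mir103-1 by 0.21. The hosts did not follow: Pank2 had a difference of -0.02 and Pank1 of -0.08, neither called, and Pank3, host of Mir103-1, fell by 0.20. Mir342, which lies in Evl and is abundant in lymphocytes, stood at 9.82, 9.71 and 9.86 in wild-type and 10.80, 10.91 and 10.64 in CD69-activated arrays. All treated arrays lay above all wild-type arrays, and it rose by 0.99 (SE 0.074, adjusted p = 6.07e-06) while Evl, at 0.06, was not called.

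The miR-15/16 family holds 6 measured loci with the seed AGCAGCA, and 5 were called higher, with differences from 0.35 to 0.97. Mir16-2 stood at 5.25, 5.31 and 5.36 in wild-type and 6.19, 6.42 and 6.22 in CD69-activated arrays and rose by 0.97 (SE 0.060, adjusted p = 1.41e-06). Its neighbour Mir15b stood at 6.71, 7.03 and 7.10 in wild-type and 7.80, 8.05 and 7.50 in CD69-activated arrays and rose by 0.84. Both lie inside Smc4, a condensin subunit whose strand is not in the tables used, which had a difference of 0.09 and was not called. In the second cluster Mir16-1 read 6.30, 6.25 and 6.26 against 6.97, 7.37 and 6.95, a rise of 0.83. Mir15a read 8.48, 8.46 and 8.55 in wild-type against 9.18, 9.34 and 9.31, a rise of 0.78. Both clusters were thus higher on every treated array. Dleu2, host of the second, had a difference of -0.53 (SE 0.195) that was not called. With a mean of 4.49, its probe set is too dim to say whether this host followed its loci. Mir195a rose by 0.35, and its neighbour Mir497 had a difference of 0.12 that was not called.

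Mir28a, in the LIM-domain gene Lpp, stood at 5.69, 5.59 and 5.88 in wild-type and 6.52, 6.95 and 6.39 in CD69-activated arrays. It rose by 0.89 (SE 0.120, adjusted p = 0.000326), and here the host was called in the same direction (Lpp, 0.20). Mir708, which has the same seed as miR-28a, rose by 0.28. Mir181b-1 stood at 5.89, 6.13 and 6.43 in wild-type and 7.05, 7.11 and 6.82 in CD69-activated arrays and rose by 0.84 (SE 0.119, adjusted p = 0.000454). Of the 6 miR-181 loci 3 were called, and the others, Mir181a-2, Mir181c and Mir181d, had differences of 0.15, 0.13 and 0.06. The partner of Mir181b-1 in its cluster, Mir181a-1, is dim, with a mean of 4.62. It rose by 0.16 with adjusted p = 0.0484, a call lost in several alternatives.

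Other loci with large rises were Mir421 (0.79), Mir680-2 (0.68), Mir491 (0.65), the p53-induced Mir34a (0.59) and Mir532 (0.59). Mir421 and its neighbour Mir374b (0.46) lie in the X-linked noncoding region of Ftx. The Mir680 copies encode 1 mature sequence, and the sources used here do not say whether the probes tell the copies apart, so they are uncertain as single loci.

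**Figure D2:**
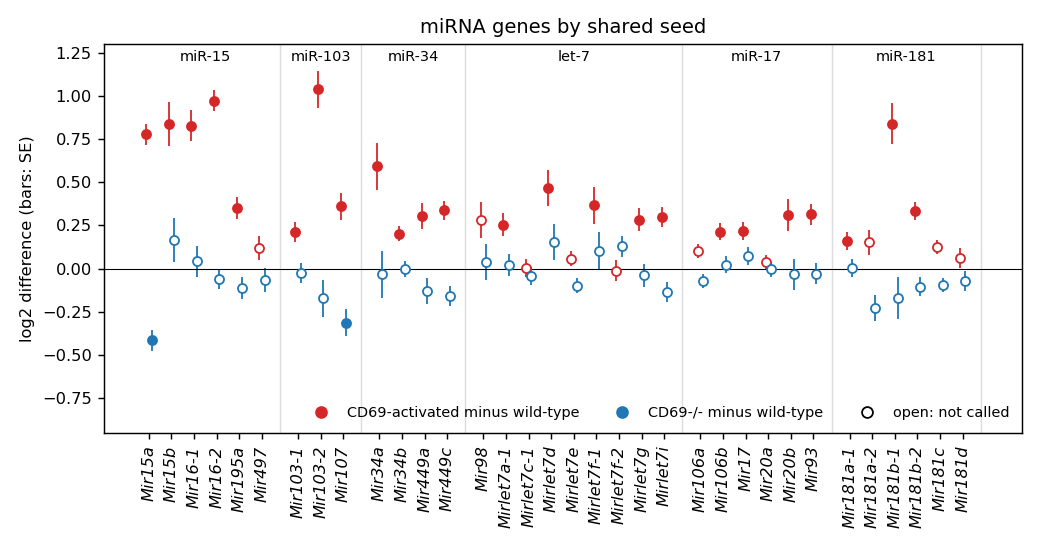
Log2 difference of each locus of 6 seed families, with bars for SE; red is CD69-activated minus wild-type, blue is CD69-/- minus wild-type, and filled points are called. In the miR-15/16 family 5 of 6 red points are filled, with Mir16-2 highest at 0.97, and among these families the filled blue points are Mir15a (-0.41) and Mir107 (-0.31).

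Grouped by seed, the called loci were spread over many families. The 270 genes with a mature sequence carried 390 distinct seeds, of which 67 were shared by 2 or more genes. In the let-7 family, known for restraining growth and stem cell programmes, 5 of the 9 loci with the seed GAGGUAG were called higher. In the miR-34 family, which restrains the cell cycle, the 4 loci that the RefSeq table lists with the seed GGCAGUG (Mir34a, Mir34b, Mir449a and Mir449c) were called, with rises of 0.20 (Mir34b) to 0.59 (Mir34a). Mir34c, for which that table holds only the other arm, had a difference of 0.06 and was not called. For the seed AAAGUGC, which the growth-promoting miR-17, miR-20, miR-93 and miR-106 carry, 4 of 6 loci were called. Loci of families that promote growth and of families that restrain it were therefore both called higher, against a background of 31.7% of the miRNA genes.

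The list of T cell miRNAs held 44 measured loci, of which limma called 19 higher and 0 lower in CD69-activated cells. The 19 are 43.2%, beside 31.7% of the 300 miRNA genes and 10.1% of all genes. At an unadjusted p under 0.05 there were 27, of which 0 were lower, and the median difference was 0.15. Mir142, a marker of blood cells and the brightest miRNA locus on the arrays, stood at 11.60, 11.84 and 12.01 in wild-type and 12.33, 12.43 and 12.16 in CD69-activated arrays. It rose by 0.49 (SE 0.100, adjusted p = 0.0045) with no overlap. Mir155, induced by antigen receptor signals, read 8.89, 9.06 and 9.22 on the wild-type arrays, 9.19, 9.25 and 9.26 on the CD69-/- arrays and 9.62, 9.67 and 9.50 on the CD69-activated arrays. Its rise was 0.54 (SE 0.074, adjusted p = 0.000357), and the CD69-/- difference of 0.18 was not called.

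Smaller rises on that list were those of Mir191 (0.24), Mir125a (0.24), Mir31 (0.21), the hypoxia-responsive Mir210 (0.14), Mir23a (0.14), Mir326 (0.15) and Mir301 (0.13). Mir31, Mir210, Mir23a, Mir326 and Mir301 each lost the call in some alternatives, and Mir301 is dim, with a mean of 4.80. Loci of known use in T cells that were not called include Mir150 (0.15), Mir146 (0.09), Mir146b (0.19), Mir29a (0.40, SE 0.137), Mir221 (0.21) and Mir132 (0.12). The cluster of Mir182, Mir96 and Mir183, which is induced by interleukin-2 signals, had differences of 0.03, 0.17 and 0.02, none called.

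Of 13 loci of the miR-17 cluster and its paralogues 4 were called higher, 30.8%, namely Mir20b (0.31), Mir93 (0.31), Mir17 (0.22) and Mir106b (0.21). The cluster members Mir18, Mir19a and Mir20a had differences of -0.08, -0.07 and 0.04, Mir19b-1 of 0.23, and the host transcript Mir17hg of 0.02. Its arrays read 7.23, 7.31 and 7.23 in wild-type and 7.23, 7.24 and 7.36 in CD69-activated cells, which overlap. Within a cluster that shares a primary transcript the loci thus gave unequal values. In the let-7 list 5 of 11 loci were called, 45.5%. Mirlet7d rose by 0.47, Mirlet7f-1, a dim locus with a mean of 4.97, by 0.37, Mirlet7i by 0.30, Mirlet7g by 0.28 and Mirlet7a-1 by 0.25. The count was 3 after cyclic loess and also 3 without wild-type replicate 2 or without the dimmest 25% of genes. Mir17, Mir20b, Mirlet7a-1 and Mirlet7f-1 each lost the call in some alternatives.

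The 10 loci with the brightest probe sets were Mir142, Mir692-1, Mir7-1, Mir505, Mir342, Mir598, Mir346, Mir667, Mir155 and Mir680-3. Mir346, best known from neurons, read 9.67, 9.67 and 9.69 in wild-type, 9.48, 9.51 and 9.42 in the CD69-/- arrays and 10.05, 10.05 and 9.95 with anti-CD69. The 3 groups did not overlap at all, and it rose by 0.34 in CD69-activated cells (SE 0.040, adjusted p = 0.000143). Mir680-3 rose by 0.46, Mir692-1 by 0.29, Mir598 by 0.22 and Mir667 by 0.19, and the last 3 lost the call in some alternatives. Mir7-1, which lies in the RNA-binding gene Hnrnpk, had a difference of 0.18 that was not called.

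Of 5 measured miRNAs of myeloid and erythroid cells limma called 0 in either direction, with 1 at an unadjusted p under 0.05. Mir126a and Mir24-2 of these are also on the T cell list. Mir126a, Mir144 and Mir451a have mean levels of 4.14, 3.91 and 4.94, in the range where few loci were called. Mir223 and Mir486 were on the planned list but are not among the 300 genes, so the list says little about myeloid miRNAs. The red cell miRNAs Mir451a and Mir144 had differences of -0.01 each and overlapping groups. Their arrays read 4.91 to 5.03 and 3.89 to 3.94 in wild type. Of 28 miRNAs of tissues other than blood 3 were called higher, 10.7%, beside 31.7% of the 300 miRNA genes and 10.1% of all genes. They were the epithelial Mir200c (0.48) and Mir141 (0.23) and the neural Mir9-1 (0.16). The median over the list was 0.04. Many of the 28 have mean levels of up to 5, the range where few loci were called. The embryonic Mir302 and Mir367 cluster had 5 loci with differences between 0.01 and 0.07, none called.

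The share of loci called was lowest among the dimmest probe sets. Of 97 miRNA genes with a mean of up to 5 on the log2 scale 8 were called higher, of 59 between 5 and 6 there were 20, of 53 between 6 and 7 there were 23, of 50 between 7 and 8 there were 19, and of 36 between 8 and 10 there were 21. Among the 5 above 10, too few for a share, 4 were called. Other genes in the same ranges were called higher in 3.11% to 13.9% and lower in 0.207% to 27.3% of cases, with the lower calls mostly among bright genes. Over the 300 miRNA genes the Spearman correlation of level with difference was 0.48, and over the other genes it was -0.26. These are descriptions across genes of the same 6 arrays, and genes are not independent replicates.

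The 54 measured small nucleolar RNA genes, another class of short RNA, gave another picture in the same comparison. Limma called 8 higher and 13 lower, 14.8% and 24.1%, with a median of -0.14. Of all genes 10.1% were called higher and 13.7% lower, so both shares were above those of all genes. In the CD69-/- comparison 1 of the 54 was called, 1.85%, where 15.1% of all genes were. The difference between the 2 classes was not tested.

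**Figure D3:**
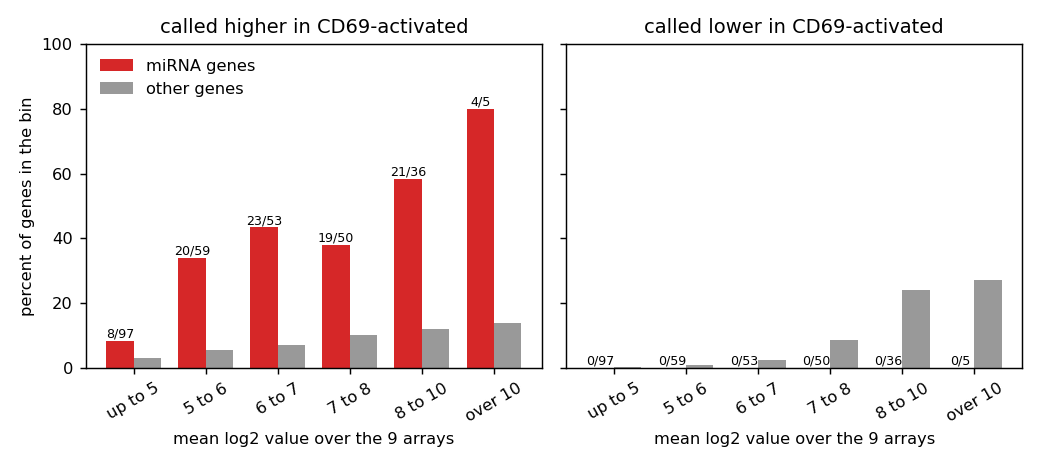
Percent of genes called higher (left) and lower (right) in CD69-activated against wild-type cells, by mean log2 value over the 9 arrays, for miRNA genes (red, with counts) and all other genes (grey). The red bars stand at 8 of 97 loci at up to 5, 23 of 53 at 6 to 7, 19 of 50 at 7 to 8 and 21 of 36 at 8 to 10, and no red bar appears on the right.

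Hosts were compared next, because an intronic miRNA shares its primary transcript with the gene around it. By the RefSeq gene positions, 184 of the 300 genes lie inside another gene, 131 of them on the same strand. A host measured on the array was found for 97 same-strand pairs of 96 miRNA genes and 76 hosts. In CD69-activated cells the median difference over these pairs was 0.16 for the miRNA locus and 0.03 for the host, and in 80 of 97 pairs the miRNA difference was the larger. Of the 43 pairs with the miRNA called higher, the host was called higher in 3 and lower in 8, and was not called in 32. Of all 19938 genes 10.1% were called higher and 13.7% lower, and whether these hosts differ from other genes was not tested. The Spearman correlation between locus and host differences was -0.07 over the 97 pairs, which share arrays and in part hosts.

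The 3 hosts called higher with their locus were Lpp (Mir28a), Tmem245 (Mir32, 0.26 beside 0.35 for the host) and Eml2 (Mir330, 0.33 beside 0.23). Opposite calls included the replication gene Mcm7, which fell by 0.57 while Mir93 (0.31) and Mir106b (0.21) in it rose. The third locus in Mcm7, Mir25, had a difference of 0.10 and was not called. Likewise 2610318N02Rik fell by 0.73 while Mir301b rose by 0.26, and Cdkl1 fell by 0.47 while Mir681 rose by 0.17. Smaller opposite pairs were Ska2 (-0.24) with Mir301 and Wdr82 (-0.13) with Mirlet7g. Mir677 was the locus with the lowest difference, -0.20 and not called, and its host Atp5b, a subunit of the mitochondrial ATP synthase, fell by 0.20.

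Where the host itself stood above the all-gene median level, 32 of 52 nested miRNA genes were called higher. Where it stood at or below that level, 11 of 44 were, and of the 116 miRNA genes inside no other gene 31 were. Of all 300 miRNA genes 31.7% were called higher, and of all 19938 genes 10.1%. The miRNA loci of brighter hosts were also brighter, with a median of 6.58 against 5.65, so host level and locus brightness moved together, and their parts were not tested. A host was read by its own probe set and a locus by another, and both read the hairpin or exons only as far as the array design places probes there, which the sources used here do not give.

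**Figure D4:**
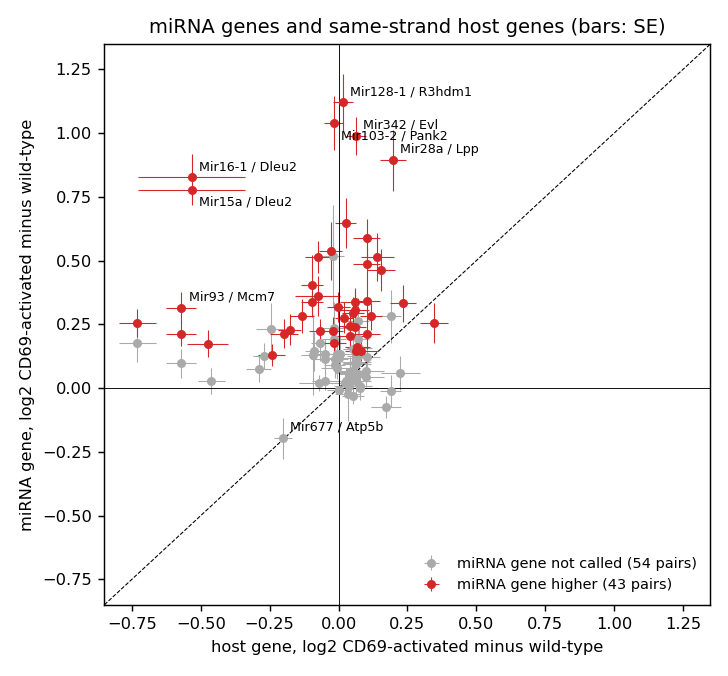
Difference CD69-activated minus wild-type of each miRNA locus (vertical) against its same-strand host gene (horizontal), both in log2 units with SE bars, for 97 pairs. Red points are the 43 pairs with the miRNA locus called higher; most stand above the dashed line of equal change, as do Mir128-1, Mir103-2 and Mir342 over hosts near 0.

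Neighbouring miRNA loci were grouped where they lay within 10 kb on the same strand, which gave 47 clusters of 147 genes. In CD69-activated cells all members were called higher in 10 clusters, some in 14 and none in 23. Of the 300 miRNA genes 31.7% were called higher, and of all genes 10.1%. How many such clusters these shares alone would give was not worked out. The clusters of Mir15b with Mir16-2, of Mir15a with Mir16-1, and of Mirlet7d, Mirlet7f-1 and Mirlet7a-1 were called throughout. On the X chromosome 4 of 5 loci in the Clcn5 cluster were called, Mir532 (0.59), Mir362 (0.49), Mir501 (0.34) and Mir500 (0.21). The fifth, Mir188, had a difference of 0.12. The largest cluster, 30 imprinted loci on chromosome 12 that are best known from embryo and brain, had 2 called and a median difference of 0.01.

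X-linked and autosomal loci are given apart because of the sex pattern of the arrays. In CD69-activated cells 12 of 39 X-linked and 83 of 261 autosomal miRNA genes were called higher, 30.8% and 31.8%, beside 10.1% of all genes. In CD69-/- cells 2 of 39 X-linked loci, Mir505 and Mir672, and 13 of 261 autosomal loci were called lower, 5.13% and 4.98%. Of all genes 6.78% were called lower there.

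Hairpins of the loci called higher were somewhat richer in G and C. The median GC content was 50% for 82 called loci with a RefSeq hairpin and 45.8% for 176 not called. GC content was also related to the level of the locus, with a Spearman correlation of 0.73 over these 258 loci, so GC content and brightness moved together. Their parts in the calls were not tested. The hairpins were 61 to 112 bases long with a median of 85.

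Genes of the miRNA pathway were called in both directions. Of 33 measured biogenesis and effector genes limma called 8 higher and 6 lower in CD69-activated cells, 24.2% and 18.2%, where 10.1% and 13.7% of all genes were, and the median was -0.01. Drosha, the nuclear enzyme that starts processing, read 9.22, 9.25 and 9.18 on the wild-type arrays, 9.33, 9.32 and 9.45 on the CD69-/- arrays and 8.96, 9.05 and 8.92 on the CD69-activated arrays. The treated arrays were the lowest of the 9, and Drosha fell by 0.24 against wild type (SE 0.047, adjusted p = 0.00413). Ran, the GTPase that exportin-5 uses, read 10.42, 10.31 and 10.27 in wild-type and 9.65, 9.86 and 9.78 in CD69-activated arrays and fell by 0.57 (SE 0.059, adjusted p = 6.15e-05). Also lower were the RNA-binding Khsrp (-0.14), the helicase Mov10 (-0.13), and Tsn (-0.30) and Tsnax (-0.19), which form a nuclease complex.

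On the effector side the Argonaute genes Ago3 (0.45), Ago2 (0.14) and Ago1 (0.11) and the GW182 genes Tnrc6a (0.36) and Tnrc6b (0.32), which link Argonaute to repression, rose. Ago4 (-0.01) and Tnrc6c (0.12) of the same families were not called. Tnrc6b read 11.36, 11.30 and 11.38 in wild-type and 11.64, 11.73 and 11.64 in CD69-activated arrays, with no overlap. Other rises were those of the helicase Ddx17 (0.16), the uridylyltransferase Tut4 (0.14) and the ribonuclease Zc3h12a (0.16). Dicer1 (0.09), Dgcr8 (0.01) and Xpo5 (-0.09) were not called. In CD69-/- cells 2 of the 33 were called higher, 6.06%, namely Mov10 (0.29) and the Dicer partner Tarbp2 (0.20), and Tut4 was lower (-0.18). The number higher there ranged from 1 to 4 and the number lower from 1 to 2 over the alternatives. Without wild-type replicate 1 the lower count in CD69-activated cells was 3.

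Marker genes of other cells were also called in this comparison. Of 7 myeloid markers 4 were higher and 1 lower, with sums of 59.6 to 59.9 in CD69-activated arrays against 58.1 to 58.3. Of 7 CD4 T cell markers 2 were lower (sums 82.4 to 82.6), of 7 B cell markers 1 was higher and 2 lower (sums 83.0 to 83.5), and of 5 erythroid markers 1 was higher and 1 lower (sums 37.0 to 37.1). Sizes were unequal, since the erythroid Car1 fell by 1.88 and Alas2 rose by 0.33. Among the myeloid markers Adgre1 rose by 0.85 and Itgax fell by 0.35. The part of other cells in the miRNA rises was not tested. With a minimum of 1.5-fold the 95 calls became 16.

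The third comparison sets CD69-activated against CD69-/- cells and shares its arrays with the other 2. Limma called 147 of 300 miRNA genes higher, 49%, where 21.6% of all genes were called higher, and 0 lower, where 21% of all genes were. Of 169 miRNA genes at an unadjusted p under 0.05, 2 were lower. The lower count was 1 after median centring, 6 after cyclic loess, 1 without CD69-/- replicate 3 and 2 without CD69-activated replicate 2. The median difference was 0.14, beside 0.04 over all genes. At 138 of the 147 loci the groups did not overlap, which again largely follows from the call. With a minimum of 1.5-fold 22 loci remained called.

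Mir505 had the largest difference, 2.10 (SE 0.100, adjusted p = 7.67e-08), with 9.17 to 9.41 in CD69-/- and 11.26 to 11.53 in CD69-activated arrays. Next were Mir687 (1.43), Mir342 (1.23), Mir103-2 (1.21), Mir15a (1.19), Mir128-1 (1.18), Mir28a (1.05), Mir16-2 (1.03), Mir421 (1.03) and Mir181b-1 (1.01). Of the 44 T cell miRNAs 23 were called higher, 52.3%, beside 49% of the 300. These include Mir150, a regulator of lymphocyte maturation, which read 7.72, 7.54 and 7.68 on the CD69-/- arrays and 8.01, 7.83 and 8.07 on the CD69-activated arrays (0.32, adjusted p = 0.00236). Mir27a, by contrast, had a difference of 0.02 and overlapping groups. Of 13 loci of the miR-17 cluster and its paralogues 8 were called, 5 after cyclic loess, and of 11 let-7 loci 5 were, 3 after cyclic loess (which called 1 lower) and 2 without CD69-/- replicate 2. Of the 28 miRNAs of other tissues 9 were called higher, 5 without CD69-/- replicate 2 or CD69-activated replicate 1 and 4 without the dimmest 25% of genes, and cyclic loess called 3 of them lower. Of the 5 myeloid and erythroid miRNAs 1 was, Mir338 (0.37).

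In the pathway list 10 genes were called higher and 10 lower, 30.3% each, where 21.6% and 21% of all genes were. Drosha fell by 0.39, Tarbp2 by 0.31 and Xpo5 by 0.13, and Dicer1 (0.15), Ago4 (0.17) and Tnrc6c (0.15) were among those that rose. Zc3h12a had a difference of 0.08 that was not called here. In the marker lists all 7 CD4 T cell markers were lower and all 7 B cell markers higher in CD69-activated arrays. Of 7 myeloid markers 6 were higher and 1 lower, and of 5 erythroid markers 4 were higher and 0 lower. The sex pattern of the arrays differed too. The parts of other cells and of sex in this comparison were not tested.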

How the data were processed

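Total RNA was labelled as sense-strand target for 1-colour Affymetrix arrays, per the labels' protocols. The deposited values are log2 expression values that the authors made by RMA (oligo, R 2.12.1), as the submitters' processing notes say; the sources used here give no settings or annotation. The values carry no detection call, and RMA compresses large differences. The table holds 35556 probe sets, 21789 with 1 gene symbol, 1621 with several and 12146 with none. Gene IDs matched all 300 miRNA genes to the RefSeq table (GRCm38.p6). The fit used lmFit and eBayes of limma 3.58.1, R 4.3.3 (9 arrays, a mean for each of 3 groups, 19938 genes, no trend; two-sided, Benjamini-Hochberg over all genes, called under 0.05), after testing on simulated data. Differences are of log2 means. Named were the 10 largest called rises and falls without overlap, called members of the lists, the 10 brightest loci, and their hosts and neighbours; loci with lower ranks or not called, and Mir32 and Mir330, were named after their values were seen. Members and lists were chosen with earlier results of these data known. Alternatives changed scaling, filter, probe sets, spread model, replicate block, minimum fold and arrays. The number of arrays limits precision; standard errors of the miRNA differences were 0.031 to 0.201. Figures used matplotlib 3.10.9.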

Additional observations from a re-analysis of the deposited data

Results flagged for a closer look

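Outside the 300 genes, 61 probe sets name a miRNA gene together with another gene. In a fit over all 35556 probe sets, an alternative chosen after seeing the data, limma called 18 of them higher in CD69-activated than in wild-type cells, 29.5%, where 10.8% of all probe sets were called higher. It called 0 of the 61 lower, where 9.47% of all probe sets were. They were set apart because no comparison used them and the share called is above that of all probe sets.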

How the results depend on the processing

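Alternatives were run for the counts and for the miRNA genes that the naming rule picked, and none of these genes changed direction. Of 38 such genes called in CD69-activated against wild-type cells 25 kept the call throughout, as did 8 of 12 for CD69-/- against wild type and 36 of 49 for CD69-activated against CD69-/-. For CD69-/- against wild type, 15 lower and 1 higher became 7 to 16 and 1 to 2 when each array was left out in turn. Median centring and a fit of only the 6 arrays compared each gave 2 higher, array weights gave 24 lower, and a minimum of 1.5-fold left 0 and 0. For CD69-activated against wild type the 95 higher calls were 64 to 95 with an array left out and 16 at a minimum of 1.5-fold. For CD69-activated against CD69-/- the 147 higher calls were 116 to 141 with an array left out and 22 at that minimum, and lower calls were 1 after median centring, 6 after cyclic loess and 0 to 2 with an array left out. The cause was not tested. With the replicate number as a block the calls were 1 higher and 14 lower, 91 higher, and 144 higher. After group means were removed, same-numbered arrays of different groups correlated at -0.242 to 0.142 and differently numbered ones at -0.143 to 0.196. Such values cannot show whether same-numbered arrays shared a source, which the labels do not state. Of 97 loci at up to 5 on the log2 scale 8 were called higher in CD69-activated cells against wild type, with a median difference of 0.02. Whether such dim loci did not change or could not be seen to change was not tested.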

Other observations

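Of the 12146 probe sets with no gene symbol, in the fit over all probe sets, 15.8% were called higher and 4.49% lower in CD69-activated against wild-type cells, with a median difference of 0.08. In the comparison of CD69-/- with wild-type cells 1.27% of them were called higher and 2.30% lower.

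The 2 miRNA genes with several probe sets were Mir713, with 3, and Mir99ahg, with 4. For Mir713 the CD69-activated mean was above the wild-type mean at each of its probe sets (6.19 and 5.84, 5.66 and 5.47, 5.51 and 5.35).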
